A study of Mus musculus with 4 samples.

Results

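LepR+ stromal cells of the bone marrow that carried much bone sialoprotein RNA (gene Ibsp) were examined in 4 single-cell RNA libraries of mouse tibial marrow. A cell barcode was taken as such a cell when it had at least 500 detected genes, at most 10% mitochondrial counts, at least 20 UMIs (unique molecular identifiers, that is counted RNA molecules) of Cxcl12, at least 2 UMIs over Lepr, Adipoq and Lpl, and none of the endothelial gene Cdh5 or of the leukocyte gene Ptprc. It also had to have at least 20 Ibsp UMIs per 10000 UMIs of the cell. The rule took 1653 of 19134 barcodes past the gene and mitochondrial filter, and they are called Ibsp-high cells. The 883 cells that passed every part of the rule except the one on Ibsp are called Ibsp-low cells.

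The study asked how cells of the marrow vascular niche differ after irradiation in mice that lack Vegfc, the gene of a secreted growth factor for lymphatic and blood vessels. All mice were C57Bl/6JCrl and homozygous for the floxed Vegfc allele (Vegfc flox/flox, the control genotype). The deleted genotype also carried RosaCreERT2, a Cre recombinase expressed from the ubiquitous Rosa26 locus and activated by tamoxifen, so that the deletion was not restricted to one cell type. Mice aged 7 to 8 weeks were given tamoxifen by 5 intragastric doses, and the labels name it for both genotypes in 1 place and for part of the samples in another. A total body dose of 4 Gy followed 2 weeks later in the irradiated groups, and marrow was collected after 7 days. Each group is 1 library of pooled mice, 3 without and 2 with irradiation (another label gives 3 irradiated mice per genotype). VE-cadherin antibody was injected before collection, and DAPI-negative cells without lineage markers, CD45 or Ter119 were sorted. Sets of 4 values below give control and then Vegfc-deleted mice without irradiation, followed by control and Vegfc-deleted mice with it.

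LepR+ cells, also known as CXCL12-abundant reticular cells, are perivascular cells of the adult marrow that supply CXCL12 and stem cell factor (Kitl) to haematopoietic stem cells and give rise to adipocytes and osteoblasts. Bone sialoprotein is an acidic glycoprotein that binds the mineral of bone and, through an RGD motif, integrins. It is known as a product of osteoblasts, but its RNA is also found in LepR+ cells that do not make mature bone matrix. It belongs to the SIBLING family, whose genes lie side by side.

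The libraries held 5134 to 7737 barcodes with 54462123 to 77284922 UMIs in all, and kept cells had medians of 7881 to 10073 UMIs. With 1 library per group there is no replicate, no test between groups was possible, and every interval given covers counting error only. The pair of non-irradiated libraries shared 117 barcodes and every other pair 13 to 24, and 5, 1, 0 and 0 Ibsp-high cells had such a barcode. Levels are UMIs per 1000000 of the summed UMIs of the cells (CPM). Vegfc, the targeted gene, was at 163.6, 15.51, 136.5 and 25.62 CPM in the Ibsp-high cells, from 1592, 91, 89 and 5 UMIs. It was low in both deleted libraries, and it had a UMI in 67.6%, 7.97%, 63.2% and 11.5% of the cells against at most 0.547% of erythroid cells. The floxed part of Vegfc was not given in the sources used here, so these 3′ counts check the labels only as far as they lie in that part.

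Ibsp-high cells numbered 968, 602, 57 and 26. They made up 79.1% (95% exact binomial interval 76.7 to 81.3), 82.9% (80 to 85.6), 13.1% (10.1 to 16.6) and 17.2% (11.6 to 24.2) of LepR+ cells. The share was therefore 6.04-fold lower with irradiation in control mice (interval 4.62 to 8.03) and 4.82-fold lower in Vegfc-deleted mice (3.25 to 7.43). Between genotypes the share differed by a factor of 1.05 (0.945 to 1.16) without and 1.31 (0.793 to 2.12) with irradiation. The intervals of these ratios treat the counts as Poisson counts, which makes them too wide for shares as large as those without irradiation. Whether the small gap between genotypes there exceeds counting error was therefore not settled. The shares over all kept cells, given below, differed beyond counting error. Cells thinned to 3000 UMIs gave shares of 81.8%, 83.9%, 14.0% and 20.3%, so the gap between irradiated and non-irradiated libraries was also there at equal depth.

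**Figure D1:**
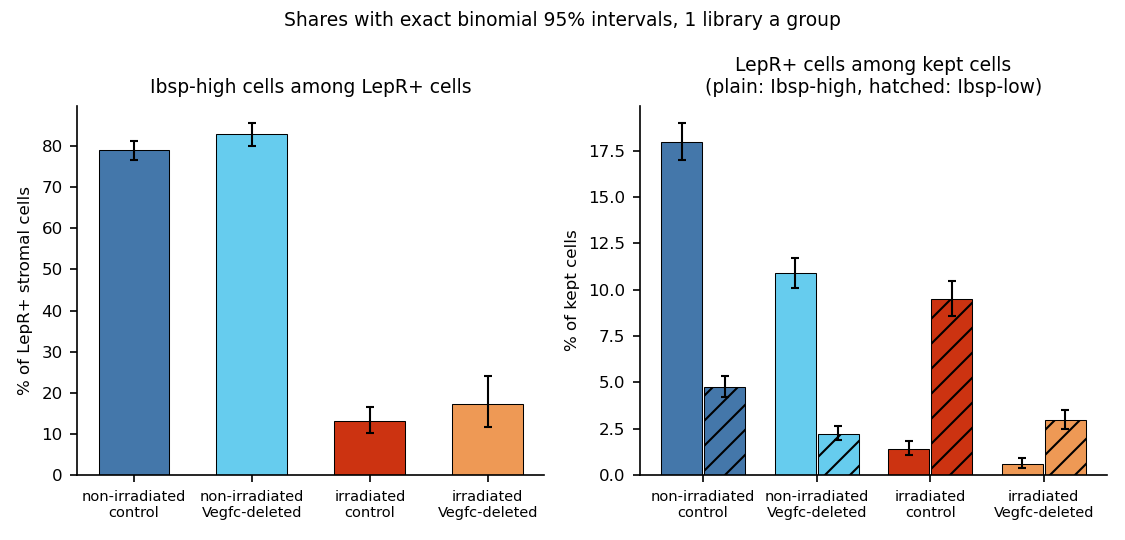
Left, percent of LepR+ stromal cells that were Ibsp-high in each of the 4 libraries; right, percent of kept cells that were Ibsp-high (plain bars) or Ibsp-low (hatched bars), with exact binomial 95% intervals. The left bars stand at 79.1% and 82.9% without and at 13.1% and 17.2% with irradiation, and the hatched bars exceed the plain ones only in the 2 irradiated libraries.

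Over kept cells, Ibsp-high cells were 18.0%, 10.9%, 1.43% and 0.613%. That was 12.5-fold (9.6 to 16.7) lower with irradiation in control and 17.7-fold (12 to 27.4) lower in Vegfc-deleted mice. Between genotypes it was 1.65-fold (1.49 to 1.83) lower without and 2.34-fold (1.45 to 3.87) lower with irradiation in Vegfc-deleted mice. Ibsp-low cells were 4.76%, 2.24%, 9.51% and 2.95% of kept cells, which was 2.0-fold (1.7 to 2.35) and 1.32-fold (1.02 to 1.7) higher with irradiation. LepR+ cells as a whole were 22.7%, 13.1%, 10.9% and 3.56%. These shares of all cells depend on what else passed the sort, and fewer Ibsp-high cells cannot be told apart from cells of that kind with less Ibsp RNA.

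Within LepR+ cells the amount of Ibsp had a broad upper mode in the non-irradiated libraries and piled up at 0 in the irradiated ones. Ibsp-high cells had medians of 64.6, 70.5, 40 and 39.2 Ibsp UMIs per 10000, with maxima of 416, 293, 261 and 156. Ibsp-low cells had medians of 6.2, 3.97, 0 and 0, and 26.2%, 33.9%, 56.3% and 72.8% of them had no Ibsp UMI. These values chose the cells and are a description. Nearest to the threshold, the lowest cells inside were at 20, 20.04, 20.66 and 20.94 per 10000 and the highest outside at 19.81, 19.95, 19.57 and 19.85. Between 5.52% and 8.74% of LepR+ cells lay from 15 to 25 per 10000. As a background for free RNA, Ibsp had a UMI in 15.6%, 8.43%, 5.01% and 1.94% of erythroid cells (medians of 6998 to 9217 UMIs per cell), at 2.113 to 32.55 CPM, against 6062 to 8129 CPM in the Ibsp-high cells.

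**Figure D2:**
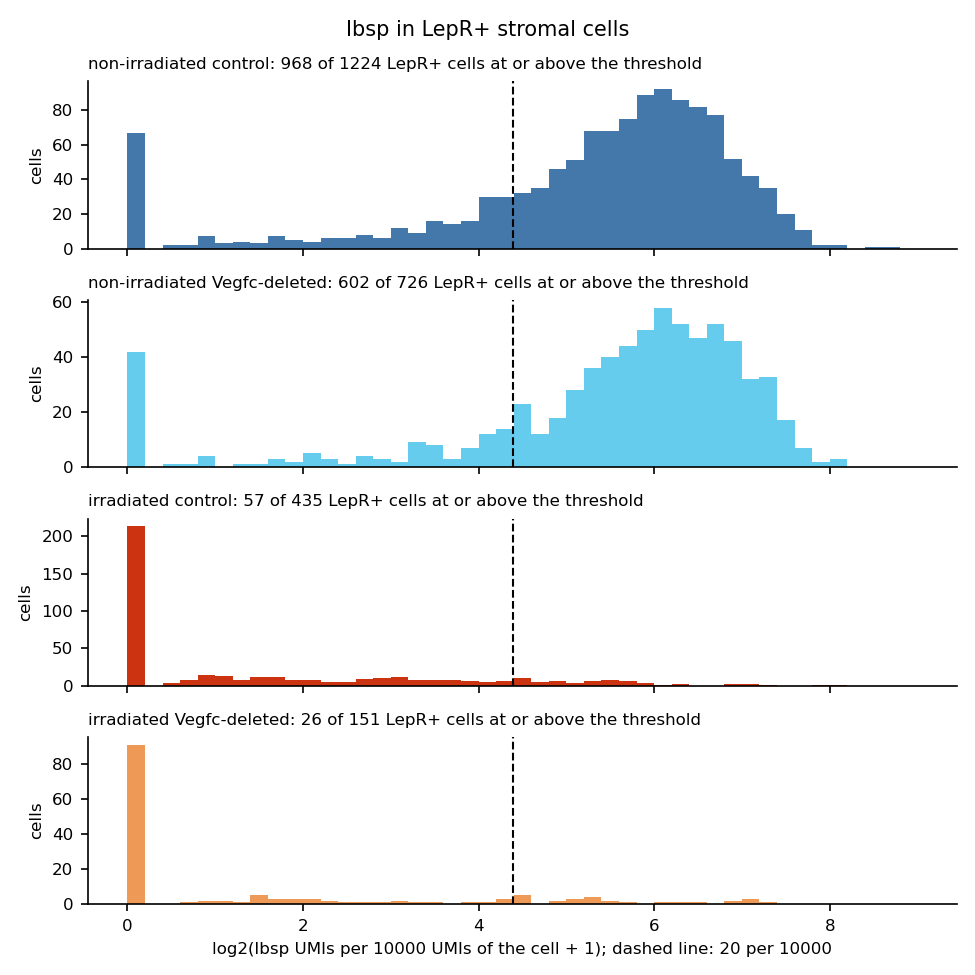
Number of LepR+ stromal cells by log2 of Ibsp UMIs per 10000 UMIs of the cell plus 1, in each library, with a dashed line at 20 per 10000. Most cells of the 2 non-irradiated libraries lie right of the line (968 of 1224 and 602 of 726), whereas in the irradiated libraries the tallest bar is at 0.

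In the irradiated control library, 5 of the 57 Ibsp-high cells had at least 20 Col1a1 UMIs per 10000 and little of the stromal genes. Their median was 12 Cxcl12 UMIs per 10000 against 273 in the other members, 1.68 against 21.5 for Lepr, 0 against 30.4 for Adipoq and 2.46 against 29.6 for Kitl. They were deep cells, with a median of 20297 UMIs against 9985, and so reached 20 raw Cxcl12 UMIs. They held 1468 of the 1574 Col1a1 UMIs of that library's Ibsp-high cells (93.3%), 38.6% of the Ibsp, 60.1% of the Spp1 and 0.874% of the Cxcl12 UMIs. Values without these cells are given beside the results in which they held a large share of the UMIs. The other libraries had 5, 3 and 1 Ibsp-high cells over the same Col1a1 amount (both non-irradiated libraries, control first, and then the irradiated Vegfc-deleted one), and in the non-irradiated control library these had a median of 250 Cxcl12 UMIs per 10000 against 252 in the others. In the non-irradiated Vegfc-deleted library it was 169 against 229. The 1 such cell of the irradiated Vegfc-deleted library was like the 5 of the irradiated control, with 28.5 against 221 for Cxcl12, 1.94 against 16.2 for Lepr and 0 against 42 for Adipoq, and it held 50.7% of the Col1a1 UMIs there.

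Erythroid RNA was the other large admixture. The 8 erythroid markers summed to 18480, 19630, 745.5 and 184.5 CPM in Ibsp-high and 61030, 43290, 8715 and 8268 CPM in Ibsp-low cells, so they moved both with the Ibsp level and with irradiation. Cells with at least 1% haemoglobin UMIs numbered 116, 56, 0 and 0 among Ibsp-high cells. Of the other marker lists, the 10 endothelial genes summed to 10.25 to 42.95 CPM, with Cdh5 at 0 by the rule. The 10 pericyte and smooth muscle genes summed to 207.4 to 369 CPM, with Myh11 and Cspg4 at 0 in both irradiated libraries. The 10 chondrocyte genes summed to 6.886, 5.112, 118.1 and 10.25 CPM, with Matn1 and Hapln1 at 0 in all 4 libraries and 8 of the 10 genes at 0 in each irradiated one. The 6 Schwann cell genes summed to 210.1 to 237.3, the 9 fibroblast genes to 624.7 to 758.4 and the 6 osteocyte genes to 174.2 to 219.1 CPM. Sox10 of the Schwann list, Dpt and Sema3c of the fibroblast list and Sost and Pdpn of the osteocyte list were at 0 in all 4. The 7 markers of mature osteoblasts summed to 246.9, 224.4, 3071 and 1507 CPM. The 6 other than Col1a1 summed to 25.28, 43.11, 656.5 and 809.7 CPM, and to 22.12, 43.37, 187.4 and 617.8 CPM without the Col1a1-rich cells. Car3 alone made 8.838, 6.475, 512.3 and 768.7 CPM of these sums, and 6.409, 6.514, 143.3 and 573.2 CPM without those cells. It made most of the irradiated sums and is also in the list of adipogenic genes. The 9 neutrophil genes summed to 131.9 to 917.3 CPM. The 8 genes of monocytes and macrophages summed to 2005, 2078, 2865 and 3572 CPM, of which Vcam1, which LepR+ cells also express, made 1963, 2051, 2836 and 3531 CPM, and Adgre1 was at 0 in the first 3 libraries. The 5 megakaryocyte genes summed to 33.3, 42.26, 271.5 and 10.25 CPM, and the 3 that could be compared in control mice (Pf4, Ppbp and Itga2b) were 2-fold higher after irradiation. The 8 genes of B and plasma cells summed to 27.61 to 87.93 CPM and the 6 of T and NK cells to at most 5.124 CPM. The part of these other cells in the results below was not tested, except where a value without them is given.

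The cells carried the defining genes of LepR+ stroma at a high level. Cxcl12, and Lepr together with Adipoq and Lpl, were part of the rule, so their presence was set by it. Cxcl12, the chemokine that retains stem cells, was at 24700, 22300, 21940 and 19490 CPM. Lepr, the leptin receptor, was at 1777, 1819, 1738 and 1425 CPM. Kitl was at 2088, 2086, 2549 and 2388 CPM, and the transcription factors Ebf1, Ebf3 and Foxc1, which maintain these cells, lay between 1066 and 1527, between 963.4 and 1138 and between 623.6 and 835.3 CPM. All 23 genes of stromal identity had UMIs in the first 3 libraries, and all but Nes in the last. This list also holds rule genes, among them Adipoq and Lpl. The other markers fixed for these cells were Wisp2 (also named Ccn5, a matricellular protein of the Wnt pathway) and Cxcl14 (a chemokine), whose levels are given below.

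Ibsp lies on mouse chromosome 5 between 104299171 and 104311469 on the plus strand (GRCm38, GENCODE M21), within the SIBLING genes that span 270 kb there. In Ibsp-high cells only its neighbour Spp1 (osteopontin, 104435118 to 104441050) was also abundant. Ibsp had 73126, 47707, 3952 and 1229 UMIs and Spp1 31170, 12526, 3666 and 695. Dmp1 had 29, 22, 0 and 0 UMIs, Mepe 12, 12, 0 and 0, and Dspp none in any library (a count of 0 allows up to 3 UMIs, or 0.308, 0.511, 4.6 and 15.4 CPM). These 3 are known as genes of osteocytes or of dentine, and they were at or near 0 in these cells.

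To see what else set Ibsp-high cells apart, they were compared with the Ibsp-low cells of the same library. This contrast is the one the rule made, so the values are a description. In this and the later comparisons a gene counts as different when it was 2-fold or more apart, the exact 95% counting interval of the ratio excluded no difference, and 1 of the groups had at least 30 UMIs. By that measure 1.68%, 2.44%, 1.47% and 1.74% of genes were higher and 3.93%, 3.99%, 4.16% and 4.65% lower. Over the 5843 genes that could be compared in all 4 libraries, 3 (0.0513%) were higher and 14 (0.24%) lower in each. The 3 include Ibsp itself, whose difference the rule set, and Wisp2. Ratios below are log2 values with 0.5 counts added.

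The 12 genes chosen as highest in every library were Igfbp5, Abi3bp, Nrp2, Lmo7, Pcolce, Itm2a, Cst3, Serpine2, Ackr4, Pros1, Shox2 and C1ra, none of them in the fixed list of osteoblast genes. Igfbp5, a binding protein of insulin-like growth factors found in bone matrix (chromosome 1, 72857932 to 72874884), was at 8218, 11120, 3467 and 4135 CPM in Ibsp-high and 2834, 4191, 1861 and 1454 CPM in Ibsp-low cells. It was higher in the Ibsp-high cells of each library, by 1.54 (1.5 to 1.57), 1.41 (1.37 to 1.45), 0.9 (0.83 to 0.97) and 1.51 (1.39 to 1.63). Wisp2 (chromosome 2, 163820861 to 163833146) had the widest gap of the fixed markers apart from Ibsp itself. It was at 536.6, 508.7, 84.36 and 128.1 CPM against 161.5, 124.9, 24.15 and 50.12 CPM, a ratio of 1.73 (1.59 to 1.88), 2.03 (1.8 to 2.27), 1.8 (1.3 to 2.3) and 1.34 (0.62 to 2.05). Without cells of 1% or more haemoglobin UMIs these ratios were 1.73, 2.02, 1.78 and 1.31 for Wisp2 and 1.38, 1.32, 0.83 and 1.48 for Igfbp5.

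The other genes of that set were lower in level than Igfbp5 and of varied function. Itm2a, a membrane protein of mesenchymal cells, was at 241.5, 210.1, 165.7 and 215.2 CPM against 112.2, 73.82, 113.3 and 90.74 CPM. Pcolce, which promotes the cleavage of procollagen, was at 422, 417.7, 266.9 and 404.8 CPM against 270.2, 284.3, 128.7 and 170.2 CPM. The protease inhibitors Cst3 and Serpine2 were higher by 0.54 to 0.72 and by 0.52 to 0.81. Ackr4, a scavenger receptor for chemokines, was higher by 0.52 to 0.8, and the limb transcription factor Shox2 by 0.51 to 1.06. Nrp2, a co-receptor for VEGF-C and semaphorins, was higher by 0.63, 0.81, 1.96 and 1.14, and the third value was 0.84 without the Col1a1-rich cells, which held 61.8% of the Nrp2 UMIs there.

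**Figure D3:**
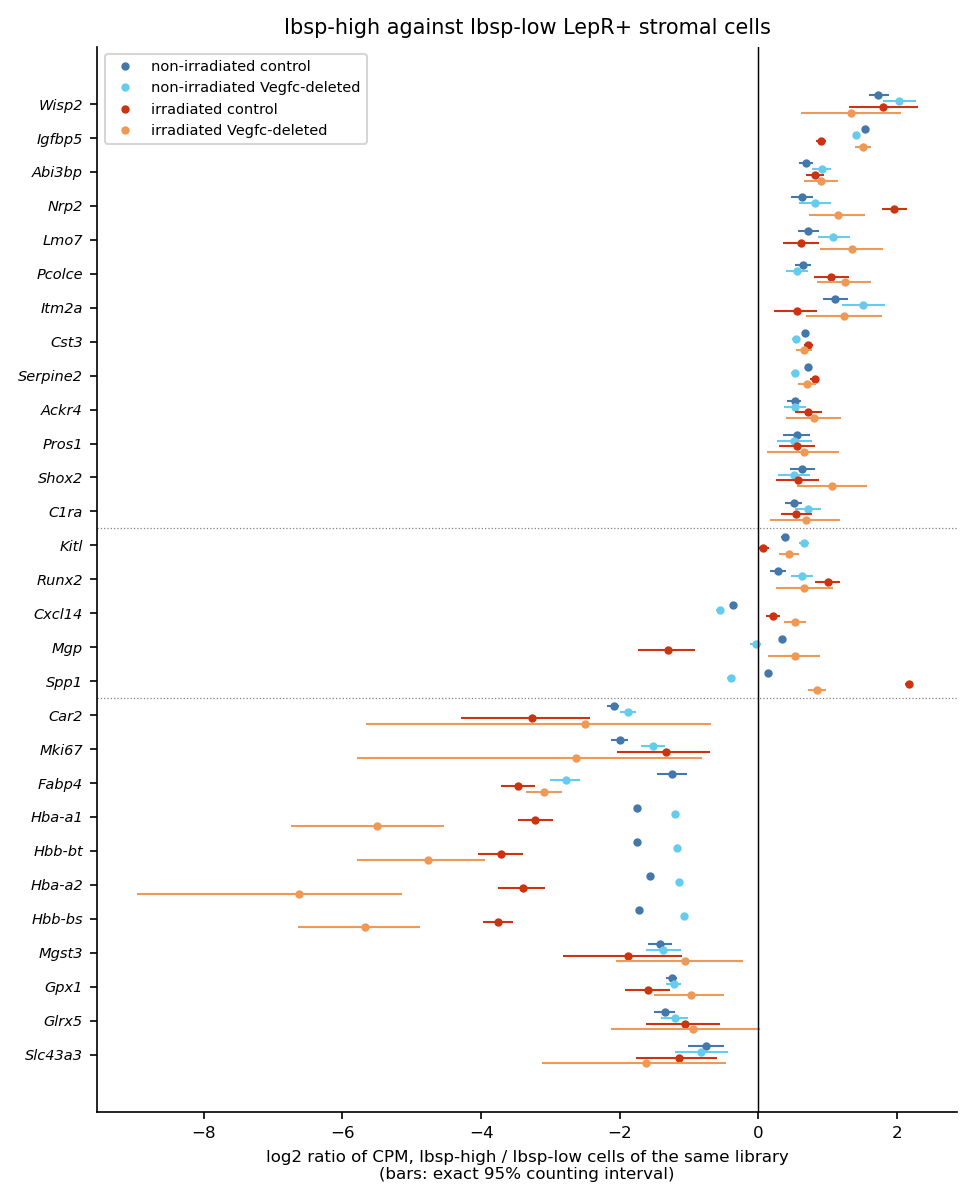
Log2 ratio of CPM between Ibsp-high and Ibsp-low cells of the same library for the genes named by rule (top and bottom blocks, with Wisp2) and 5 stromal and bone genes (middle block); points are the 4 libraries and bars exact 95% counting intervals. The top block lies right of 0 in all 4 libraries, Cxcl14, Mgp and Spp1 of the middle block change side between libraries, and the bottom block, mostly erythroid genes, lies left of 0.

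In the non-irradiated libraries no gene of the fixed list of osteoblast genes was 2-fold higher beside Ibsp. Runx2, the master factor of the osteoblast lineage, was at 391.4, 447.1, 509.2 and 333.1 CPM in Ibsp-high and 321.8, 289.8, 255.2 and 210 CPM in Ibsp-low cells, a ratio of 0.28, 0.63, 1.0 and 0.66. Sp7, which acts after Runx2, was at 30.73, 25.22, 81.29 and 76.87 CPM against 38.99, 25.92, 47.31 and 44.94 CPM, and the irradiated Ibsp-high values for Sp7 were 56.96 and 61.22 CPM without the Col1a1-rich cells. Spp1 was at 3203, 2134, 5623 and 3561 CPM against 2906, 2822, 1247 and 1984 CPM, so it was not on 1 side, and 1 cell held 48.7% of the Spp1 UMIs of the irradiated control members. Without the Col1a1-rich cells Spp1 was at 2687 CPM in the third library, and its ratio there was 1.12 in place of 2.17. Of the osteoblast genes that could be compared, 0 of 19, 0 of 18, 12 of 19 and 1 of 15 were 2-fold higher and 2, 5, 0 and 1 lower, with medians of 0.3, -0.63, 1.39 and 0.12. Without the Col1a1-rich cells the third library had 5 of 17 higher and a median of 0.42, and cells thinned to 3000 UMIs gave 5 of 16. Of the osteogenic transcription factors, 0 of 14, 0 of 14, 2 of 14 and 0 of 8 were higher and none lower.

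Adipogenic genes stood lower in the Ibsp-high cells of the irradiated libraries, and few did so in the non-irradiated control library. Of those compared, 2 of 21, 7 of 20, 15 of 24 and 15 of 23 were lower and 1, 0, 0 and 0 higher, with medians of -0.04, -0.31, -1.13 and -1.72 against -0.1 to 0.05 over all genes. Without the cells of highest doublet score the second library had 2 of 18 lower, and after thinning the irradiated libraries had 8 of 20 and 7 of 13. Fabp4, a fatty acid carrier of adipocytes (chromosome 3, 10204088 to 10208576), was at 49.95, 50.27, 222.4 and 676.4 CPM in Ibsp-high and 118.5, 347.1, 2459 and 5755 CPM in Ibsp-low cells. The ratios were -1.25, -2.78, -3.47 and -3.09, and Fabp4 was the only gene of the adipogenic list among the 12 lowest by rule. Pparg, the regulator of fat differentiation, was at 58.78, 56.06, 76.69 and 56.37 CPM against 60.26, 49.48, 165.3 and 198.8 CPM, so it was lower in the irradiated libraries and close in the other two. Plin1, which coats lipid droplets, had no UMI in Ibsp-high cells and was at 0, 13.35, 43.07 and 94.2 CPM in Ibsp-low cells. Adipoq, used by the rule, did not share this direction and was at 1772, 2371, 2930 and 4320 CPM against 1056, 1457, 2889 and 3172 CPM.

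The other genes chosen as lowest included Car2, Mki67, Hba-a1, Hbb-bt, Hba-a2, Hbb-bs, Mgst3, Gpx1, Glrx5 and Slc43a3, most of them genes of red cell precursors or dividing cells. Hbb-bs, an adult beta-globin, was at 8724, 9385, 273 and 61.49 CPM against 28990, 19690, 3679 and 3162 CPM. Mki67, a proliferation marker, was at 115, 117.2, 32.21 and 10.25 CPM against 461.2, 336.9, 81.17 and 67.41 CPM. All 15 cell cycle genes were lower in the first library and 13 of 15, 8 of 15 and 4 of 6 in the others. With the highest doublet scores left out, none of 14 were lower in the first library and 2 of 11 in the second, and without haemoglobin-rich cells Hbb-bs stood at 0.08, 0.05 and 0.1 in the first 3 libraries.

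Genes of stromal identity were present in both sets of LepR+ cells. The rule set this in part, since both sets passed the same limits on Cxcl12 and on Lepr, Adipoq and Lpl. Of 22, 22, 22 and 21 identity genes compared, none was 2-fold lower and 1 (Ebf2, in the non-irradiated Vegfc-deleted library, by 1.03) was higher. Kitl was higher by 0.38, 0.65, 0.07 and 0.44 and Cxcl12 by 0.52, 0.62, 0.11 and 0.28. Among niche factors only Ptn (pleiotrophin, a growth factor for stem cells) was 2-fold higher in more than 1 library, by 3.54, 1.07, 1.05 and 0.35. Of the integrin subunits, Itgb5, a partner of the RGD-binding alpha-v integrin, was at 55.91, 52.48, 65.96 and 56.37 CPM against 25.6, 25.92, 32.87 and 40.62 CPM. Htra1, a protease that cleaves IGF-binding proteins, was higher by 1.09, 1.56, 0.92 and 0.54. Wif1, a secreted Wnt inhibitor, was on both sides, with ratios of -0.37, -1.92, 2.5 and 1.06. Cxcl14 was lower in the non-irradiated Ibsp-high cells, at 2686 and 2545 CPM against 3476 and 3758 CPM, and not in the irradiated ones, at 1460 and 2014 CPM against 1263 and 1396 CPM.

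Ibsp-high cells also varied among themselves. In the non-irradiated libraries, 349 and 254 cells had at least 80 Ibsp UMIs per 10000 and 217 and 104 had 20 to 40. Between these ends Wisp2 was higher by 0.76 and 1.12, Igfbp5 by 0.67 and 0.65, Itm2a by 0.63 and 0.66, Pcolce by 0.65 and 0.54 and Adipoq by 0.64 and 0.58 (control and Vegfc-deleted). Lepr was higher by 0.43 and 0.35 and Cxcl12 by 0.24 and 0.16. Spp1 (0.06 and -0.05), Mgp (-0.07 and -0.11) and Kitl (0.06 and 0.14) were nearly level along the same axis, and Runx2 was at -0.05 and 0.41. Hbb-bs was lower at the upper end, with ratios of -2.01 and -1.71, so erythroid RNA varied along it too. The 57 and 26 irradiated cells were too few for such a split (29, 20 and 8 cells and 13, 5 and 8 cells from low to high).

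Irradiated and non-irradiated Ibsp-high cells were then compared within each genotype. Of 11133 and 10093 genes compared, 4.57% and 4.31% were 2-fold higher and 4.63% and 3.25% lower in control and Vegfc-deleted mice. In both genotypes 90 genes (0.893%) were higher and 143 (1.42%) lower. The 57 and 26 irradiated cells together held 651954 and 195146 UMIs against 9730593 and 5868447, which limits the smaller side. Scaling with TMM factors moved the median over all genes by -0.2 and -0.25, so the direction of ratios below that size depends on the scaling.

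Interferon-response genes were higher after irradiation. Of 25, 17 were 2-fold higher and 0 lower in control and 11 higher and 1 (Rsad2) lower in Vegfc-deleted mice, with medians of 1.44 and 0.74. The second count was 7 with TMM factors, 6 of 24 after thinning and 4 with an Ibsp threshold of 40 per 10000. Ifit1, an antiviral RNA-binding protein, was at 35.25, 61.17, 190.2 and 256.2 CPM, higher by 2.43 (2.12 to 2.73) and 2.06 (1.61 to 2.5). Isg15, a ubiquitin-like modifier, was at 158.9, 185.7, 469.4 and 599.6 CPM and Oasl2, a relative of the antiviral oligoadenylate synthetases, at 32.27, 44.3, 99.7 and 158.9 CPM. In each of these both irradiated libraries lay above both others. The chemokine Cxcl9 was at 222.3, 357.2, 1908 and 768.7 CPM, and 1 cell held 50.8% of its UMIs in the irradiated control library. In Ibsp-low cells 16 of 25 and 14 of 24 interferon genes were higher and 0 lower, where 8.78% and 6.84% of all genes were higher and 5.71% and 7.43% lower.

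Targets of p53, the factor that responds to DNA damage, were in part higher. Of 18 compared, 6 and 5 were 2-fold higher and 2 and 2 (Plk2 and Btg2) lower, with medians of 0.66 and 0.67, and 2 of 18 were higher in control mice after thinning. Trp53inp1, which promotes the p53 response, was at 30.21, 38.34, 102.8 and 174.2 CPM, higher by 1.76 (1.36 to 2.15) and 2.18 (1.62 to 2.71). Ccng1 was at 25.18, 25.9, 98.17 and 138.4 CPM, also higher in both. Cdkn1a, the p21 inhibitor of the cell cycle, was at 354, 455.7, 570.6 and 594.4 CPM, higher by 0.69 and 0.38, below 2-fold. In Ibsp-low cells Cdkn1a was at 225.7, 286.6, 794.5 and 712.1 CPM, higher by 1.82 and 1.31. Whether the response of the 2 kinds of cell differs was not tested.

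Immediate early genes were lower in the irradiated libraries. Of 21, 16 and 19 were 2-fold lower and none higher, with medians of -1.65 and -2.37. Fos was at 7709, 8037, 3058 and 1527 CPM, Egr1 at 5287, 5112, 2265 and 1250 CPM and Junb at 3510, 3339, 949.5 and 589.3 CPM. These are fast-acting transcription factors of the stress and growth response. In Ibsp-low cells 13 of 21 and 19 of 19 genes of the list were lower. The monocyte chemokine Ccl2 was at 136.5, 189, 16.87 and 15.37 CPM in Ibsp-high and 147.7, 125.7, 179 and 63.09 CPM in Ibsp-low cells. Of the chemokines and cytokines, Cxcl1, Ccl2, Ccl7 and Il6 were lower in both genotypes.

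Wisp2 and Igfbp5, both higher in Ibsp-high than in Ibsp-low cells, were lower in the irradiated Ibsp-high cells, as were Cxcl14 and Mgp. Wisp2 had ratios of -2.67 (-3.08 to -2.29) and -1.99 (-2.62 to -1.42), and had a UMI in 86.6%, 80.6%, 24.6% and 46.2% of Ibsp-high cells. After thinning to 3000 UMIs these shares were 67.5%, 64.2%, 13.2% and 32.0%, against 0 to 2.09% unthinned in erythroid cells. Igfbp5 had ratios of -1.25 and -1.43, with medians over cells of 69.5, 98.9, 25.6 and 18.9 per 10000. Cxcl14 had ratios of -0.88 and -0.34. Mgp (matrix Gla protein, an inhibitor of calcification) was at 2237, 1305, 81.29 and 389.5 CPM, with ratios of -4.78 (-5.2 to -4.39) and -1.74 (-2.09 to -1.42), and 1 cell held 52.6% of the UMIs of the last library. These genes were lower in irradiated Ibsp-low cells as well, with ratios of -2.73 and -1.31 for Wisp2, -0.61 and -1.53 for Igfbp5 and -3.13 and -2.31 for Mgp. For Cxcl14 the ratios were -1.46 and -1.43 there, further from 0 than in Ibsp-high cells. Ibsp itself, on which the cells were chosen, was at 7515, 8129, 6062 and 6298 CPM.

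**Figure D4:**
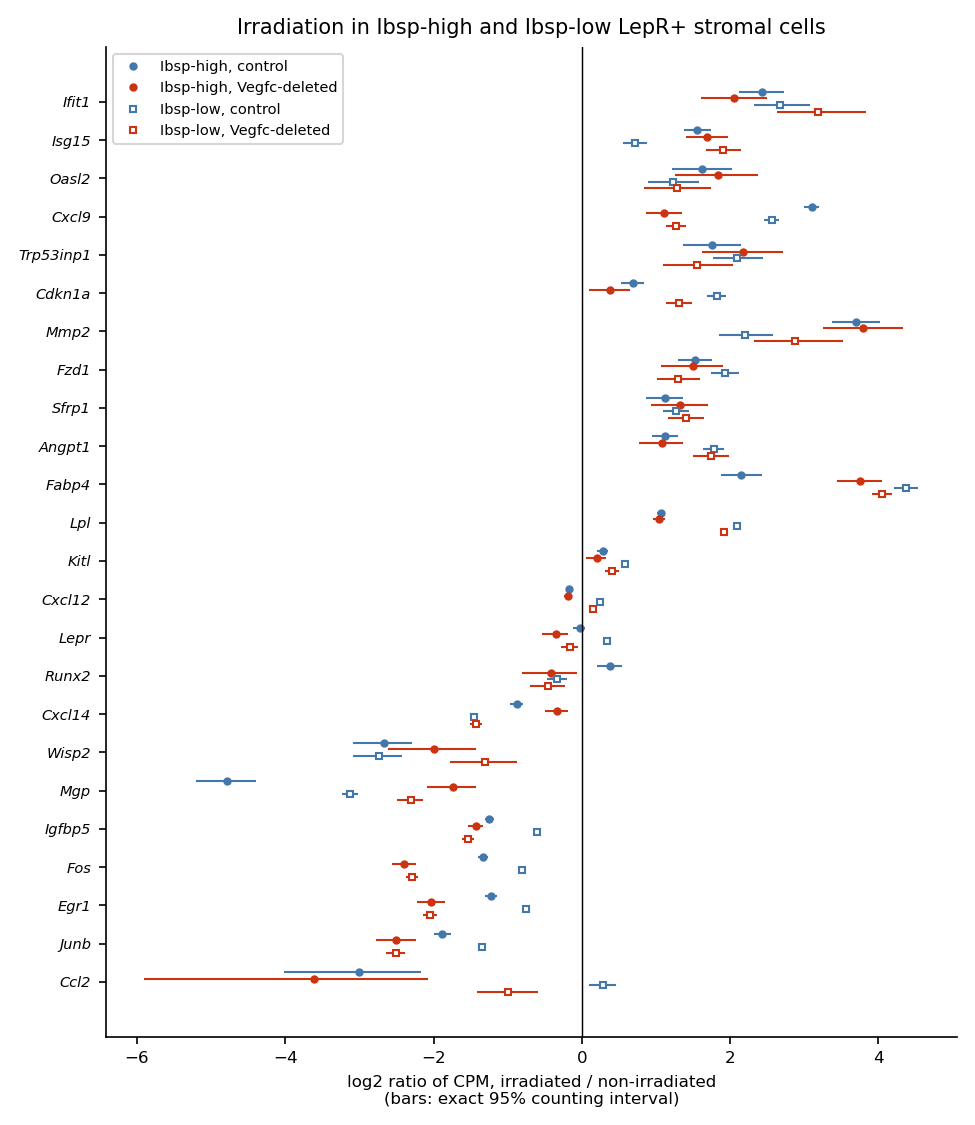
Log2 ratio of CPM between irradiated and non-irradiated cells of each genotype, for Ibsp-high (filled) and Ibsp-low cells (open), with exact 95% counting intervals. Interferon genes, Trp53inp1, Cdkn1a and Mmp2 lie right of 0 for both kinds of cell, Kitl, Cxcl12 and Lepr lie within 1 of 0, and Wisp2, Mgp, Igfbp5, Fos, Egr1 and Junb lie left of 0.

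Some osteoblast genes were higher in irradiated Ibsp-high cells, and fewer without the 5 Col1a1-rich cells of the control library. Of that list, 13 of 20 and 3 of 17 were 2-fold higher and none lower, with medians of 1.43 and 0.64. Without the Col1a1-rich cells the control count was 7 of 19 with a median of 0.4, and after thinning it was 8 of 16. Col1a1, the main collagen of bone (chromosome 11, 94936224 to 94953042), was at 221.6, 181.3, 2414 and 696.9 CPM, higher by 3.45 (3.35 to 3.54) and 1.94 (1.67 to 2.2). In Ibsp-low cells Col1a1 had ratios of 0.7 and -0.09. There 3 of 18 and 2 of 17 osteoblast genes were higher and 3 and 3 lower. No ratio of Col1a1 without the Col1a1-rich cells is read here, since those cells were picked by Col1a1 itself. Erythroid cells held 3.941, 207.3, 733.4 and 40.49 CPM of Col1a1, so Col1a1 was also higher in erythroid cells of the irradiated control library than of its non-irradiated counterpart. The part of free RNA in the Col1a1 values was not tested. Of the collagen genes, 5 of 17 and 1 of 17 were higher, and 0 of 17 in control mice without those cells. The list of other matrix genes was on both sides, with 7 of 32 higher and 5 lower in control and 1 of 29 higher and 4 lower in Vegfc-deleted mice (medians of 0.31 and 0.13), and Mgp, Fbln1, Matn4 and Igfbp5 were lower in both. Postn, a matricellular protein of bone surfaces, was at 16.13, 4.942, 398.8 and 40.99 CPM, with ratios of 4.62 and 3.01, and of 2.19 and 1.19 without those cells.

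Mmp2 (chromosome 8, 92827291 to 92853420), a gelatinase, ranked highest among the genes higher in both genotypes that met the naming rule, which asks for a UMI in at least 10 cells. It was at 18.5, 16.19, 240.8 and 225.5 CPM, higher by 3.7 (3.38 to 4.02) and 3.79 (3.25 to 4.33), and by 3.05 and 3.94 without the Col1a1-rich cells. It had a UMI in 11.6%, 9.47%, 49.1% and 57.7% of Ibsp-high cells, and in 4.23%, 4.2%, 35.8% and 28.0% after thinning, against at most 0.963% of erythroid cells. Mmp13, the collagenase, differed between the irradiated libraries, at 392, 548.4, 3641 and 271.6 CPM, with a median over cells of 0.87, 1.4, 0 and 0 per 10000. Mmp13 had a UMI in 53.9%, 59.8%, 49.1% and 26.9% of Ibsp-high cells. The 5 Col1a1-rich cells held 46.5% of its UMIs in the third library, which was at 2334 CPM without them. Sp7 was higher by 1.4 and 1.6 (0.9 and 1.28 without those cells), and Runx2 had ratios of 0.38 and -0.42.

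**Figure D5:**
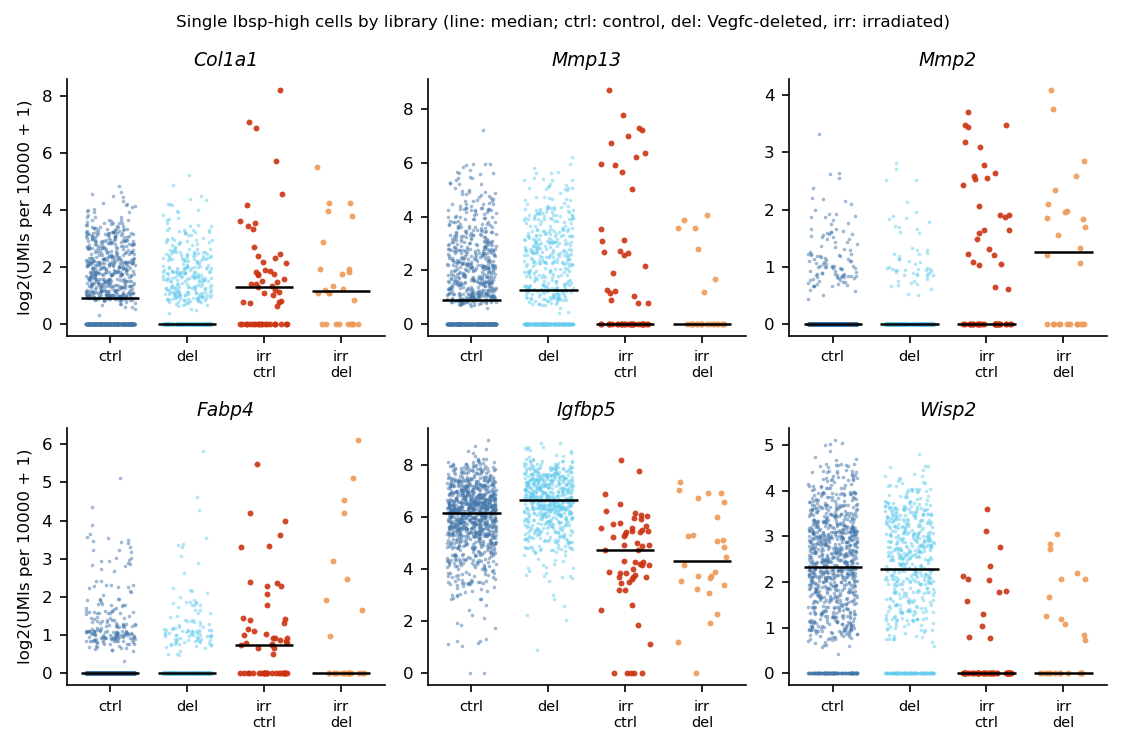
Log2 of UMIs per 10000 plus 1 in single Ibsp-high cells of each library for 6 genes, with a line at the median. A few cells of the irradiated control library reach far above the others for Col1a1 and Mmp13, Mmp2 has a UMI in 49.1% and 57.7% of irradiated against 11.6% and 9.47% of non-irradiated cells, and Igfbp5 and Wisp2 are shifted down in most irradiated cells.

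Adipogenic genes were 2-fold higher after irradiation for 7 of 21 and 5 of 18 and lower for 2 and 3 (Cebpb and Cebpd in both). Fabp4 was higher by 2.15 (1.88 to 2.43) and 3.75 (3.44 to 4.05), and Car3, a carbonic anhydrase of fat and muscle, was at 8.838, 6.475, 512.3 and 768.7 CPM. Car3 is also in the list of mature osteoblast markers, and 256 of its 334 UMIs in the irradiated control library (76.6%) lay in the Col1a1-rich cells, whose median for Adipoq was 0. Without these cells the irradiated libraries had 143.3 and 573.2 CPM of Car3, a ratio of 4.46 and 6.42. Most UMIs of both genes lay in few cells. The top 3 cells held 53.1% and 87.1% of the Fabp4 UMIs and 74.0% and 96.7% of the Car3 UMIs of the irradiated members. Fabp4 had a UMI in 20.2%, 17.1%, 57.9% and 34.6% of Ibsp-high cells and in 10.6%, 10.2%, 37.4% and 20.1% of erythroid cells. Its level was 49.95, 50.27, 222.4 and 676.4 CPM in Ibsp-high and 109.5, 137.4, 437.1 and 32.04 CPM in erythroid cells. Only in the irradiated Vegfc-deleted library was it higher in Ibsp-high cells. The part of free RNA in the Fabp4 values was not tested. Lpl, a rule gene, was at 3245, 3420, 6809 and 7031 CPM. In Ibsp-low cells 16 of 24 and 17 of 25 adipogenic genes were higher and 2 and 4 lower.

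Few factors that act on haematopoietic cells were 2-fold apart. Of 16 niche factors, 1 and 2 were higher and none lower, and 3 (Il7, Angpt1 and Mdk) were higher in control mice without the Col1a1-rich cells. Angpt1, the ligand of the Tie2 receptor, was at 219.5, 242.3, 478.6 and 512.4 CPM, higher by 1.12 and 1.08 in the 2 genotypes. Mdk (midkine) was at 341.7, 232.8, 647.3 and 804.5 CPM and Csf1, the macrophage growth factor, at 617.5, 581.6, 707.1 and 830.1 CPM. Kitl had ratios of 0.29 and 0.2, and of 0.08 and -0.06 with TMM factors. Cxcl12 had ratios of -0.17 and -0.19, and of -0.37 and -0.45 with TMM factors. In Ibsp-low cells Cxcl12, a rule gene, was at 17270, 14530, 20350 and 16100 CPM, that is 0.24 and 0.15 higher after irradiation. TMM factors moved the median over all genes of Ibsp-low cells by -0.18 and -0.15, so this small rise depends on the scaling.

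In the Wnt pathway, 4 and 4 genes of 23 and 20 were higher and 2 and 1 lower, with Wisp2 lower in both. The secreted antagonist Sfrp1 was at 110.9, 129, 240.8 and 322.8 CPM and the receptor Fzd1 at 99.38, 99.86, 286.8 and 281.8 CPM, both higher in the irradiated libraries, while Sfrp2 was at 18.4, 18.06, 108.9 and 81.99 CPM. Of the BMP and TGF-beta genes, 2 of 31 and 1 of 30 were higher and 4 and 6 lower. The ligand Bmp6 was at 404.6, 411.7, 193.3 and 189.6 CPM and the BMP antagonist Grem1 at 1186, 1327, 855.9 and 363.8 CPM, whereas Bmp4 was at 394, 309.5, 328.2 and 497.1 CPM. In the VEGF axis, Vegfa was at 398.5, 625.5, 210.1 and 179.4 CPM, and Nrp2 at 228.8, 233.1, 645.8 and 363.8 CPM (a control ratio of 1.5, and 0.37 without the Col1a1-rich cells). Of the other genes chosen by rule, Rnf213, Ak1 and Gsn were higher in both genotypes by 1.19 to 2.0. In Ibsp-low cells Rnf213 and Ak1 were higher by 1.02 to 1.99, whereas Gsn had ratios of 0.86 and -1.88.

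The genes chosen as lowest after irradiation were mostly genes expressed in erythroid cells (among them Alas2, Rhd, Hba-a1, Hba-a2, Hbb-bs, Hbb-bt, Car2 and Cd24a). Cd24a was at 142.1, 116, 9.203 and 5.124 CPM. Of the 15 cell cycle genes, 9 and 5 were lower and none higher, and 4 of 14 and 0 of 12 were lower without haemoglobin-rich cells.

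Genotypes were compared last. Without irradiation, 44 of 11146 genes (0.395%) were 2-fold higher and 152 (1.36%) lower in Vegfc-deleted Ibsp-high cells, and no pathway list had more than 2 such genes in a direction. Below that size, the 25 interferon-response genes had a median of 0.45 against -0.01 over all genes, with 2 of them 2-fold higher. In Ibsp-low cells their median was 0.31 against 0.02, with 3 of 25 higher. Vegfc was the lowest of the genes chosen, with a ratio of -3.39 (-3.72 to -3.09), and of -2.36 (-4.07 to -1.14) with irradiation. Kcne4, a potassium channel subunit, was at 51.49, 208.7, 10.74 and 30.75 CPM, higher by 2.02 (1.87 to 2.17) without irradiation. Rgs2, a regulator of G protein signalling, was at 48.61, 133.3, 46.02 and 66.62 CPM. Errfi1, a feedback inhibitor of the EGF receptor, was at 1283, 2718, 739.3 and 712.3 CPM and Cited2, a transcriptional cofactor, at 554.3, 1142, 339 and 722.5 CPM. Cited2 was higher in both deleted libraries, by 1.04 and 1.09, whereas Errfi1 had a ratio of 1.08 without and of -0.05 with irradiation. Eya1 and A2m were higher by 1.17 and 1.02 without irradiation. In Ibsp-low cells without irradiation Kcne4 was higher by 2.08, Rgs2 by 1.74, Errfi1 by 1.16 and A2m by 1.37. Eya1 was higher by 0.38 there, and Cited2 had ratios of 0.57 without and -0.24 with irradiation.

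On the lower side, Id1, a target of BMP signalling, was at 93.52, 34.25, 92.03 and 56.37 CPM, and Serpina3n, a protease inhibitor, at 205.1, 79.58, 144.2 and 66.62 CPM. Timp1, an inhibitor of matrix metalloproteinases, was at 78.41, 36.98, 85.9 and 30.75 CPM, lower in both deleted libraries. Milr1 was at 69.47, 27.43, 18.41 and 10.25 CPM and the unnamed gene AC160336.1 at 266.7, 100.4, 124.2 and 81.99 CPM. In Ibsp-low cells without irradiation the ratios were -0.94 for Serpina3n, -1.21 for Timp1, -1.22 for Milr1 and -1.03 for AC160336.1. Id1 was level there, at 118.9 and 118.6 CPM, and Timp1 was higher by 1.32 in Vegfc-deleted Ibsp-low cells with irradiation. Tnfsf11, the osteoclast factor RANKL, was at 114.8, 231.6, 104.3 and 66.62 CPM. Without irradiation the list of regulators of osteoclasts, parathyroid hormone and vitamin D held no other gene 2-fold apart, and with irradiation Vdr was lower in Vegfc-deleted cells. The fixed markers were close between genotypes without irradiation, at -0.15 for Cxcl12, 0.03 for Lepr, 0.11 for Ibsp, -0.08 for Wisp2 and -0.08 for Cxcl14. Igfbp5 was higher by 0.44 in Vegfc-deleted cells there, and Adipoq, a rule gene, by 0.42 (0.39 to 0.45). With irradiation, 34 of 3841 genes (0.885%) were higher and 176 (4.58%) lower. Osteoblast genes were lower for 9 of 19 there, and for 2 of 14 without the Col1a1-rich cells of the control library. Immediate early genes were lower for 6 of 17, with Fos at 1527 against 3058 CPM, and for 15 of 21 in irradiated Ibsp-low cells. Whether any of these genotype gaps exceeds the spread between mice was not tested, since each library is 1 pool.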

How the data were processed

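Single-cell libraries were made with 10x Chromium 3' v3.1 chemistry and sequenced on an Illumina NovaSeq, per the labels' protocols. The authors deposited raw UMI counts per gene and barcode for 31053 features. Cell Ranger 2.1.1 and mm10 stand in the submitters' processing notes, whereas the matrix header gives version 3.1.0. Further alignment settings were not given in the sources used here. Depth per library is in the report.

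Counts were summed over the chosen cells of a library and scaled to CPM. Intervals are exact at 95% (Clopper-Pearson for shares, Poisson for levels, conditional for ratios). Log2 ratios used 0.5 added counts. Doublets were not removed; an alternative left out the highest Scrublet scores at 0.8% per 1000 barcodes. Erythroid cells were those with at least 10% haemoglobin UMIs and fewer than 20 Cxcl12 UMIs. Gene positions came from GENCODE M21 (506 of 506 IDs matched).

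Named genes had at least 50 CPM, 30 counts and 10 cells with a UMI in the higher group. From these came the 12 highest and 12 lowest genes, ranked on the ratio nearest 0 over 4 libraries (Ibsp-high against Ibsp-low), 10 and 10 over both genotypes (irradiation) and 6 and 6 (genotype, without irradiation), besides the genes of the fixed lists. A few of the genes so chosen are not reported here. The cells, lists and rules were chosen with earlier results of these data known. The scripts were tested on simulated data. Python 3.11.15, numpy 2.4.6, scipy 1.17.1, pandas 2.3.3, scanpy 1.11.5, R 4.3.3 and edgeR 4.0.16 (TMM factors only) were used.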

Additional observations from a re-analysis of the deposited data

Results flagged for a closer look

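Among the named genes and the genes of the lists, 9 had irradiation ratios of Ibsp-high cells that pointed in opposite directions in control and Vegfc-deleted mice, each at least 1.5-fold, with a counting interval away from no difference and at least 30 counts. Smaller opposite ratios, such as those of Runx2, are not counted, and none of these differences between genotypes was tested. The log2 ratios (control, then Vegfc-deleted) were 1.29 and -1.98 for Vdr, the vitamin D receptor, and 3.22 and -1.01 for Mmp13. They were -0.87 and 2.59 for Gdf15, a stress-induced cytokine, and 1.0 and -2.08 for Rsad2, an antiviral enzyme. Timp3 gave 1.21 and -0.83 and Eya1 0.71 and -0.79. The neutrophil granule genes gave -1.46 and 1.0 for S100a8, -2.53 and 1.36 for S100a9 and -3.1 and 0.99 for Camp. Several of these rested on single cells: 1 cell held 85.0% of the Timp3 and 84.3% of the Rsad2 UMIs of the irradiated control members and 1 cell 76.5% of the Gdf15 UMIs of the irradiated Vegfc-deleted members. In the non-irradiated control library 1 cell held 72.8% of the S100a8, 70.1% of the S100a9 and 80.5% of the Camp UMIs. Without the Col1a1-rich cells the ratios were 0.5 and -1.84 for Vdr and 2.59 and -1.45 for Mmp13.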

How the results depend on the processing

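Each group has 1 library, so no library could be left out within a group. No paired analysis was possible because no result comes from a test: the groups have 1 library each, and the contrast within libraries is the one that chose the cells. The irradiation ratio of the Ibsp-high share was -2.59 (log2, control) and moved to -2.13 with an Ibsp threshold of 10 and to -3.25 with 40 per 10000, and the one in Vegfc-deleted mice moved from -2.27 to -2.99 with 40. The 3 genes higher in all 4 libraries against Ibsp-low cells include Ibsp, whose difference the rule set. Such genes numbered 3, and 1 with at most 5% mitochondrial UMIs, 1 after thinning and 5 with a minimum of 10 counts. Those lower numbered 14, and 9 with the threshold of 40, 6 after thinning, 3 without the highest Scrublet scores, 5 without haemoglobin-rich and 22 without Col1a1-rich cells. Genes higher after irradiation in both genotypes numbered 90, and 49 with the threshold of 40, 46 with TMM factors and 45 after thinning; those lower numbered 143, and 221 with TMM factors and 80 after thinning. Without irradiation, 44 genes were higher and 152 lower between genotypes, and 110 and 230 with a minimum of 10 counts. Most changes of sign were in genes chosen as lower in Ibsp-high cells. After thinning, the irradiated Vegfc-deleted library gave -0.16 for C1ra and 0.16 for Mgst3. Without the highest Scrublet scores, the non-irradiated control library gave 0.04 for Car2, 0.09 for Mgst3 and 0.14 for Mki67, the irradiated control 1.26 for Mki67 and the non-irradiated Vegfc-deleted 0.02 for Slc43a3. Without haemoglobin-rich cells, the irradiated control library gave 0.56 for Car2, 0.73 for Hba-a1, 0.23 for Hba-a2, 0.1 for Hbb-bs, 0.12 for Hbb-bt and 1.55 for Mki67, the non-irradiated control 0.01 for Hba-a1, 0.05 for Hba-a2, 0.08 for Hbb-bs and 0.07 for Hbb-bt, and the non-irradiated Vegfc-deleted 0.05 for Hbb-bs. Without Col1a1-rich cells the control irradiation ratio of Col1a1 was -0.1, which the removal by Col1a1 itself sets. Except where an alternative itself removed cells, UMIs or genes, the cause was not tested. The 3 alternatives that leave out barcodes shared between libraries, haemoglobin-rich cells or Col1a1-rich cells were chosen after seeing the data. The 57 and 26 irradiated cells limit depth, since 3 counts there are 4.6 and 15.4 CPM.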
